A study of Mus musculus with 13 samples.

Results

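Selected Tox-high thymocytes are T cell precursors at the step that follows recognition of self peptide-MHC in the thymic cortex. Here the name stands for 3518 cells, of 58756 thymic cells in all, chosen by their counts of unique molecular identifiers (UMIs) of 16 genes. That each of them is at this step was not established. A cell needed 500 to 25000 UMIs, at least 4 UMIs of Tox, and at least as many UMIs of Tox as of Arpp21, Rag1 and Rag2 together. It was left out with more than 1 UMI of the proliferation genes Mki67 and Top2a, with more than 1 UMI of the CD4 lineage genes Zbtb7b and Cd40lg, or with any UMI of Runx3, Itgae, S1pr1 or Klf2. It was also left out with more than 2 UMIs of Tnfrsf9, Arhgap20, Ikzf2 and Nr4a3, genes linked to strong T cell receptor (TCR) signalling. The cells are called Tox-high below.

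The cells came from 8 thymic samples of young female C57BL/6N mice, profiled whole by split-pool barcoding with no sort. The samples WT 1 to WT 4 were the 2 thymic lobes of each of 2 mice aged 2 months, run with the Parse WT kit in a library of 20 samples. The label of that library reads thymus and spleen, control and chronic stress, for all its samples together, and the wells used here are those of the thymic samples. It does not say which samples were controls. The paper names no treatment for the mice of its thymic samples, so WT 1 to WT 4 were taken as controls. Mini 1-A, 1-B, 2-A and 2-B were lobes of another 2 mice, run with the Parse Mini kit and labelled thymus and control. Cells could not be assigned to mice, lobes of a mouse are not independent animals, and kit, mice and library cannot be told apart. All p-values therefore measure the spread between lobes.

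Thymocytes that carry both coreceptors, CD4 and CD8, are called double positive (DP). They express the recombinase genes Rag1 and Rag2 while they rearrange the TCR alpha locus, and most die by neglect. Those whose receptor binds self peptide-MHC with moderate strength are positively selected: they stop recombination, induce Tox, Cd5 and Cd69, lower their coreceptors for a time, and then choose the CD4 or CD8 lineage and move to the medulla. Tox encodes an HMG-box nuclear protein that is induced by TCR signals at this step and is needed for the CD4 lineage.

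The 4 genes given as markers of these cells lie at the following places in GRCm38 (GENCODE M21). Tox spans chr4:6686353-6991557 on the minus strand, and Arap2, which encodes an Arf GTPase-activating protein, spans chr5:62602445-62766159 on the minus strand. Cd5 (chr19:10717116-10739002) and Cd6 (chr19:10789341-10830058), which encode related scavenger-type receptors that dampen TCR signals, are neighbours on the minus strand of chromosome 19. Between them on the plus strand lies A430093F15Rik (chr19:10740947-10786043), a gene that appears again in the results.

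The promoter set used here (RefSeq, GRCm38.p6, from 250 bases before to 50 bases after the start) held 2 of the markers, Arap2 and Cd5. Their promoters are shown because both genes and 3 EGR factor genes were higher than in resting DP cells, as described below. Capitals mark the EGR motifs GCGTGGGCG and GCGGGGGCG and the E-box CAGGTG, the motif of E proteins, on either strand. The Arap2 sequence is from chr5:62766128-62766427 and the Cd5 sequence from chr19:10738925-10739224, both on the minus strand.
Arap2: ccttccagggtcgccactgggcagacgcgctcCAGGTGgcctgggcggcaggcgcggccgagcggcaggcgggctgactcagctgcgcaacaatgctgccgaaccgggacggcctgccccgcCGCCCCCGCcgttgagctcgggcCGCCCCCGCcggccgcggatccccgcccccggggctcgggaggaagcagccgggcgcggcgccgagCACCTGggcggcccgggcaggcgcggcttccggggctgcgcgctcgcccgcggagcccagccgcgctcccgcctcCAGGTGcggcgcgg
Cd5: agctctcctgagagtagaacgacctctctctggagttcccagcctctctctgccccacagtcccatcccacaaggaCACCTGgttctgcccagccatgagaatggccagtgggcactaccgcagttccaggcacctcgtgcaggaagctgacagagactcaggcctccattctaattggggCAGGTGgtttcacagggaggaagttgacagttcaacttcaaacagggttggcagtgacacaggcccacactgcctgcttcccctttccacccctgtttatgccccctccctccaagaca
The Arap2 promoter held 2 EGR motifs and 3 E-boxes, and the Cd5 promoter held 2 E-boxes and 0 EGR motifs. Of 32851 promoters of this length, 1139 (3.47%) held an EGR motif and 6640 (20.2%) this E-box. A match describes the letters and is no evidence of binding.

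Tox-high cells were 6.11% ± 0.606 (SD, n = 8) of the cells of a lobe. In the Parse WT samples the share was 6.11%, 6.20%, 6.21% and 5.27%, and in the Mini samples 5.50%, 6.02%, 6.20% and 7.32%. WT 4 was the lowest and Mini 2-B the highest, and the kits overlapped. The number of Tox-high cells per sample ran from 243 to 749. Since the rule used measured counts, the share is a description and was not tested. The rule also sets upper limits in UMIs, and few deep cells met them. Up to 10000 UMIs, 3498 of 50289 cells were Tox-high, against 3518 of 58756 cells in all. The other cells of WT 4 had the highest median depth of the samples, 4098 UMIs. Whether depth bears on the low share in WT 4 was not tested. The Tox minimum took out the most cells and the comparison with Arpp21, Rag1 and Rag2 the next most: 26428 cells had 4 or more Tox UMIs, 9246 of these had Tox at or above the Arpp21, Rag1 and Rag2 sum, 5615 passed the limits on proliferation, lineage and egress genes, and 3518 passed the limit on Tnfrsf9, Arhgap20, Ikzf2 and Nr4a3.

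**Figure D1:**
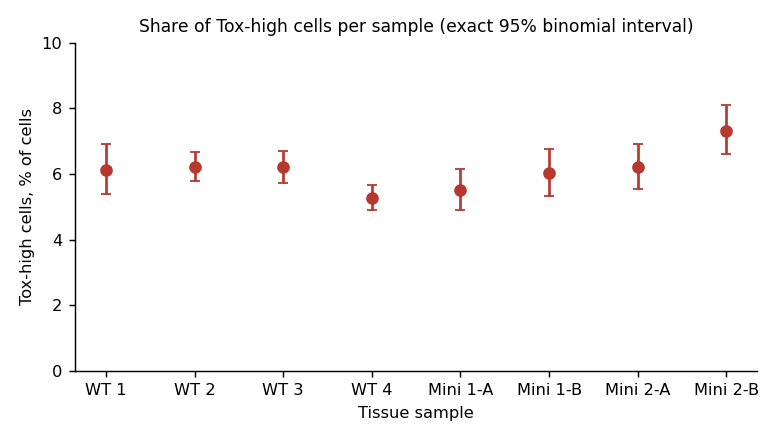
Share of Tox-high cells among the cells of each tissue sample (vertical axis, percent) for the 8 samples (horizontal axis). Points are shares and bars are exact (Clopper-Pearson) 95% binomial intervals, which cover counting error only. All 8 shares lie between 5.27% and 7.32%.

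Tox itself had a median of 10 UMIs in a Tox-high cell, with quartiles of 6 and 16 and a highest count of 95, and 1211 of the cells (34.4%) had no UMI of Arpp21, Rag1 or Rag2. In CPM, the counts of a class in a sample scaled to a total of 1000000 UMIs outside ribosomal RNA, Tox was 5436 at the lowest, 6812 at the median and 7950 at the highest in Tox-high cells. The comparison class of resting DP cells met the same limits but had at least 4 UMIs of Arpp21, Rag1 and Rag2 together and more of these than of Tox. It numbered 21365 cells, in which Tox ran from 925 to 1218 CPM. Arpp21, whose product is a phosphoprotein, had a mean of 1406 CPM in Tox-high and 6156 CPM in resting DP cells, and Rag1 had 341 and 1740 CPM. These values restate the rule and carry no test. The Tox threshold did not sit in a gap. The 436 cells with 3 Tox UMIs that met the other limits had 479.9 CPM of Cd5 and 978.4 CPM of Bcl2, and the 386 members with 4 Tox UMIs had 460.2 and 1029 CPM. The 600 members with 20 or more Tox UMIs had 662.8 CPM of Cd5, 1893 CPM of Bcl2, 342.1 CPM of Itm2a and 45.81 CPM of Ccr7, against 195.6 CPM of Itm2a and 186.7 CPM of Ccr7 at 4 UMIs. Those 600 cells were also deeper, with a median of 3649 UMIs against 1292.

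The label double-positive was checked on the coreceptor genes, which the rule did not use. Of the Tox-high cells, 29.2% had UMIs of both Cd4 and Cd8a or Cd8b1, 22.8% of Cd4 alone, 19.3% of Cd8a or Cd8b1 alone and 28.7% of neither. Among resting DP cells, which had nearly the same median depth (1999 UMIs against 1998), 60.4% had both and 8.91% neither. Coreceptor transcripts were thus found in fewer cells than in resting DP cells, although both kinds were present in all 8 samples, and the double-positive state of a single cell was not established at this depth. In 232 deeper cells with myeloid markers (median 4513 UMIs), described below, 15.1% had Cd4 alone and 18.1% Cd8a or Cd8b1 alone. Of these cells 3.88% had both and 62.9% neither. Whether they make coreceptor transcripts themselves was not tested.

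Against resting DP cells of the same samples, Tox-high cells had more RNA of TCR-induced genes, of the survival gene Bcl2, of Il7r and of the chemokine receptor genes Ccr4 and Ccr7. They had less RNA of the coreceptors and of genes that mark DP cells before selection. The edgeR quasi-likelihood test with the sample as a block called 4327 of 11416 genes (37.9%) at an adjusted p under 0.05, of which 2139 (18.7%) were higher and 2188 (19.2%) lower in Tox-high cells. A change of at least 2-fold was reached by 554 of the higher and 458 of the lower genes. Of the called genes, 1412 were higher and 1260 lower in 8 of 8 samples. How many of all tested genes had groups of samples without overlap was not counted. Statements on overlap, here and in the other comparisons, describe the named gene only. The 16 genes of the rule were outside the fit, but genes whose counts go with theirs in single cells differ between classes cut on them, so the calls describe what goes with the rule. Cells summed into 2 classes also cannot tell more cells with a transcript from more RNA per cell.

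The 3 markers outside the rule were all higher, beside 18.7% of all genes, and their groups of samples did not overlap. These markers were given with earlier results of these data known, so their rise is a description and no independent support. Cd5 was 615 at the lowest, 676 at the median and 866 CPM at the highest in Tox-high cells, and 132, 163 and 200 CPM in resting DP cells. The change was 4.13-fold (log2 2.04 ± 0.08 SE, adjusted p = 2.6e-09). Arap2 ran from 1189 to 1630 CPM against 580 to 694 (log2 1.11 ± 0.03, adjusted p = 2.6e-36). Cd6 ran from 323 to 508 CPM against 207 to 302, the smallest change of the 3 at 1.60-fold.

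The 3 coreceptor genes were all lower, beside 19.2% of all genes. Cd4 had 450, 583 and 670 CPM (lowest, median, highest) in Tox-high cells and 720, 1004 and 1174 CPM in resting DP cells (log2 -0.79 ± 0.04, adjusted p = 1.7e-27). Cd8a had 258, 343 and 423 CPM against 545, 688 and 800 CPM (log2 -1.02 ± 0.08), and Cd8b1 had a log2 change of -1.13 ± 0.04. For all 3 genes every sample of Tox-high cells lay under every sample of resting DP cells. Each value was lower in 8 of 8 samples.

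Of 20 TCR-induced genes, 19 were higher and 0 lower, with a median log2 change of 1.01, beside a median of -0.01 over all genes tested. Of all genes 18.7% were higher and 19.2% lower. Itm2a, a membrane protein gene induced during selection, had 218, 261 and 328 CPM in Tox-high cells and 14.8, 25.5 and 36.0 CPM in resting DP cells, a 10.4-fold difference (log2 3.38 ± 0.18, adjusted p = 8.4e-07). Cd69, an early activation receptor that holds cells in the thymus, had 66.0, 90.0 and 111 CPM against 15.6, 17.7 and 29.9 CPM (log2 2.20 ± 0.10). The zinc finger genes Egr1, Egr2 and Egr3 are switched on within minutes of TCR signalling. Egr1 had a mean of 39.1 CPM against 8.59, Egr2 12.6 against 1.25 and Egr3 8.05 against 1.09, with log2 changes of 2.10 ± 0.14, 3.15 ± 0.33 and 2.76 ± 0.37. Their corepressor gene Nab2 was higher by 3.13 ± 0.17 and the adhesion receptor gene Cd2 by 2.46 ± 0.07 on the log2 scale. Nr4a1, an orphan nuclear receptor gene much used to report TCR signals, rose less (log2 1.09 ± 0.05), and its samples overlapped, with 140 to 355 CPM against 59.6 to 146. The costimulatory receptor genes Cd28 (log2 0.58) and Cd27 (log2 0.40) were higher in 8 of 8 samples. Myc was the gene of the list that was not called, with a mean of 7.21 CPM against 5.26 and an adjusted p of 0.23.

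Genes of TCR signalling itself moved in both directions. Of 9 TCR and CD3 chain genes 1 was higher and 5 lower, beside 18.7% and 19.2% of all genes. Trac, the TCR alpha constant gene, rose (log2 0.59 ± 0.06), while Ptcra, the pre-TCR chain, fell from 3.13 to 7.50 CPM in resting DP cells to 0 to 2.13 CPM. Of 20 proximal signalling genes 7 were higher and 4 lower, with a median of 0.05. The 4 lower were near the share over all genes. The kinase gene Fyn had 837, 1008 and 1374 CPM against 349, 387 and 425 CPM (log2 1.41 ± 0.04), and the protein kinase C theta gene Prkcq rose 2.06-fold. Lck, the kinase that binds the coreceptors, fell (log2 -0.53 ± 0.04), with 412 to 559 CPM against 523 to 822. Of 24 genes for inhibitors of TCR signals, Cd5 and Cd6 among them, 13 were higher and 7 lower, with a median of 0.31. The inhibitory receptor genes Btla (113 to 174 CPM against 7.52 to 22.2, log2 3.12 ± 0.16) and Pdcd1 (2.76 to 10.4 CPM against 0.185 to 1.99, log2 2.35 ± 0.42) and the phosphatase gene Ubash3b (log2 2.09 ± 0.16) had the largest increases of that list. The adaptor gene Sla2 (log2 -1.10 ± 0.05), the inhibitory receptor gene Lag3 (log2 -1.06 ± 0.33) and the ubiquitin ligase gene Cbl (log2 -0.56 ± 0.03) were lower.

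Of 16 genes of agonist selection and costimulation, 14 were tested, 11 were higher and 2 lower, beside 18.7% and 19.2% of all genes. The NF-kB subunit gene Relb had a log2 change of 1.92 ± 0.15 and the costimulatory receptor gene Icos 1.47 ± 0.10. Zbtb16, the PLZF gene of natural killer T cells, was called higher (log2 2.14 ± 0.64, adjusted p = 0.032), yet it was higher in only 5 of 8 samples. Its level ran from 0 to 87.3 CPM in Tox-high cells and from 0.554 to 12.7 CPM in resting DP cells. The call was lost without WT 2 (adjusted p = 0.091), Mini 2-A (0.056) or Mini 2-B (0.051). Il2ra, the IL-2 receptor alpha gene, fell (log2 -1.77 ± 0.22) from 41.0 to 67.5 CPM to 4.47 to 45.1 CPM. Bcl2l11, which encodes the death protein Bim, fell as well (log2 -0.63 ± 0.04).

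Of 14 genes of DP cells before selection, 12 were lower and 0 higher, with a median of -1.09. Of all genes 19.2% were lower and 18.7% higher. Bcl2l1, the Bcl-xL gene that DP cells depend on, had 130, 167 and 205 CPM in Tox-high cells and 390, 447 and 499 CPM in resting DP cells (log2 -1.42 ± 0.06, adjusted p = 7.7e-21). Dntt, the terminal transferase gene, had 180, 284 and 315 CPM against 624, 786 and 872 CPM (log2 -1.57 ± 0.08). The 2 groups of samples did not overlap for either gene. Endou and Spo11 fell 2.87-fold and 2.93-fold. Cd1d1, whose product presents lipids to natural killer T cells, had a mean of 14.7 CPM against 16.2 (adjusted p = 0.40) and Slamf1 153 CPM against 145 (adjusted p = 0.82).

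The 14 genes of survival and death were mostly lower or not called: 2 were higher, 6 lower, and the median was -0.16. Of all genes 18.7% were higher and 19.2% lower. Bcl2 stood apart among them. It had 1229, 1525 and 2015 CPM in Tox-high cells and 123, 196 and 235 CPM in resting DP cells, a 7.99-fold difference (log2 3.00 ± 0.17, adjusted p = 2.2e-06). Bbc3, the Puma gene, was the other gene that rose (log2 0.41 ± 0.13), a call lost without WT 3 (adjusted p = 0.053), while the death genes Bmf (log2 -1.28 ± 0.09), Bid (log2 -0.67 ± 0.16) and Fas (log2 -0.53 ± 0.07) fell. Bcl2 and Bcl2l1 thus moved in opposite directions in 8 of 8 samples.

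Of 22 T cell and lineage factor genes, 12 were higher and 7 lower, with a median of 0.18, beside 18.7% and 19.2% of all genes. Bach2, a repressor of effector genes, had 1426, 1583 and 2051 CPM against 141, 202 and 291 CPM (log2 2.89 ± 0.18, adjusted p = 3.2e-06). Tox2, a paralogue of Tox, rose by 3.12 ± 0.17 on the log2 scale, from 3.32 to 8.25 CPM to 26.4 to 92.4 CPM, and Tox3 went the other way (log2 -1.44 ± 0.12). Lef1 (2.95-fold) and Gata3 (2.63-fold), which are needed for the CD4 lineage, were higher in 8 of 8 samples without overlap. Myb, which supports DP survival, fell (log2 -0.90 ± 0.07).

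Cytokine receptor and migration genes separated the classes as well. Il7r, the IL-7 receptor alpha gene that is off in DP cells and returns after selection, had 160, 215 and 243 CPM against 16.2, 25.2 and 33.0 CPM (log2 2.94 ± 0.15, adjusted p = 7.7e-08). Among 21 cytokine receptor and Stat genes 13 were higher and 5 lower, beside 18.7% and 19.2% of all genes. Il6ra (log2 1.35 ± 0.22) and Tgfbr2 (log2 0.88 ± 0.05) rose and Ifngr1 fell (log2 -0.75 ± 0.05). Of 14 migration genes 13 were tested, and 7 were higher and 5 lower. Ccr4, a receptor for medullary chemokines, had 62.7, 84.5 and 125 CPM against 4.43, 5.92 and 7.94 CPM, a 13.4-fold difference (log2 3.74 ± 0.12, adjusted p = 3.4e-34). Gpr183, an oxysterol receptor gene, was higher by 3.20 ± 0.14 on the log2 scale. Ccr7, the receptor for medullary CCL19 and CCL21, had 59.6, 91.0 and 122 CPM against 11.9, 16.2 and 26.7 CPM (log2 2.22 ± 0.18). Ccr9, whose ligand CCL25 is made by thymic epithelium, was only 1.27-fold higher. Plxnd1, a semaphorin receptor gene of DP cells, fell 2.34-fold and Selplg, the P-selectin ligand gene, fell 1.92-fold.

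Late maturation genes were higher too. Of 20 such genes 18 were tested, 15 were higher, 0 lower, and the median was 1.03, beside 18.7% and 19.2% of all genes. The lymphoid GTPase genes Gimap4 (76.4 to 148 CPM against 8.405 to 33.6) and Gimap3 (27.7 to 47.7 CPM against 2.65 to 11.2) and the MHC class I gene H2-K1 (log2 1.24 ± 0.13) did so. Gimap and H2 genes have close copies, so the split of their counts is uncertain.

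**Figure D2:**
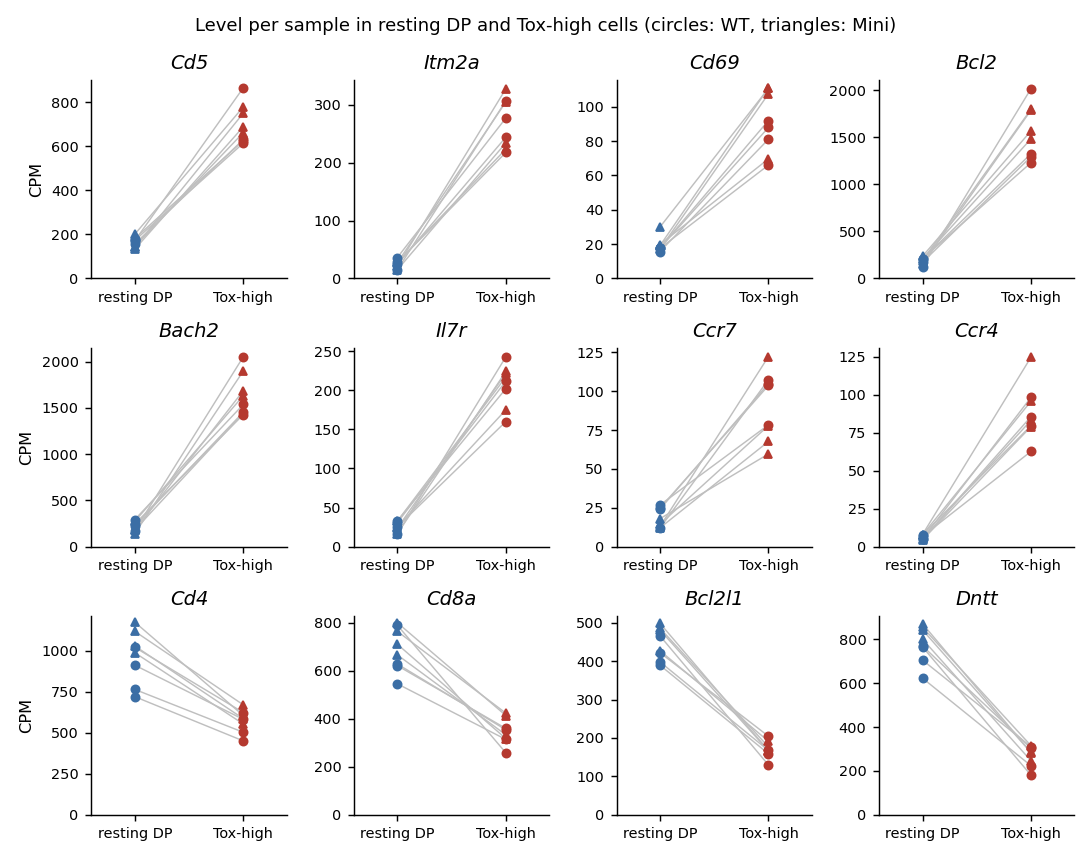
Level in CPM (vertical axis of each panel) of 12 genes in resting DP cells (blue) and Tox-high cells (red), with 1 line per tissue sample (circles: Parse WT, triangles: Mini). Cd5, Itm2a, Cd69, Bcl2, Bach2, Il7r, Ccr7 and Ccr4 rose and Cd4, Cd8a, Bcl2l1 and Dntt fell in all 8 samples, with no overlap between the classes.

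By the size of the change, the 10 genes that rose most were Chl1, Chn2, P2rx7, Ccr4, Hs3st3b1, B630019A10Rik, Prlr, A430093F15Rik, Ptgfrn and Itm2a. Chl1, a neural cell adhesion gene of the L1 family, had 304, 377 and 461 CPM in Tox-high cells and 9.95, 22.2 and 29.6 CPM in resting DP cells, a 16.6-fold difference (log2 4.05 ± 0.20). Chn2, which encodes a GTPase-activating protein for Rac, had 158 to 306 CPM against 5.31 to 19.4 CPM (log2 3.94 ± 0.26), and P2rx7, an ATP-gated channel gene, 15.6 to 35.7 CPM against 0.885 to 3.13 CPM. A430093F15Rik, the gene between Cd5 and Cd6, had 192, 201 and 253 CPM against 10.4, 18.7 and 25.3 CPM (log2 3.45 ± 0.14). B630019A10Rik is annotated as antisense, and since it is not given whether the counting used strand, its level is uncertain. The 10 genes that fell most were Il34, Notch3, P2rx1, Adamts17, Tshz2, Iftap, Gm38405, Ttc12, Gm32004 and Cbfa2t3. Iftap (chr2:101560781-101649532, minus strand) spans Rag1 and Rag2, which the rule used, so its counts cannot be told apart from theirs and its fall is not read as a result. Gm38405 is antisense as well. Notch3, a receptor gene of early thymocytes, had 1.49 to 29.8 CPM against 59.97 to 91.5 CPM (log2 -2.17 ± 0.15). Il34, a ligand of the CSF1 receptor, fell 5.09-fold and P2rx1, another ATP-gated channel gene, 4.38-fold. P2rx7 and P2rx1 thus went in opposite directions.

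Of 22 cell cycle genes outside the rule 21 were tested, and 3 were higher and 3 lower, beside 18.7% and 19.2% of all genes. Both classes were limited to at most 1 UMI of Mki67 and Top2a. The cyclin gene Ccnd2 rose 4.03-fold, from 13.3 to 34.4 CPM to 72.7 to 134 CPM, while Ccnd3, the cyclin gene of DP cells, was 1.13-fold lower. Of 12 genes of Notch signalling and the double-negative stage, 9 were tested, of which 1, Cd44, was higher and 3, Notch3, Notch1 and Il2ra, were lower.

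**Figure D3:**
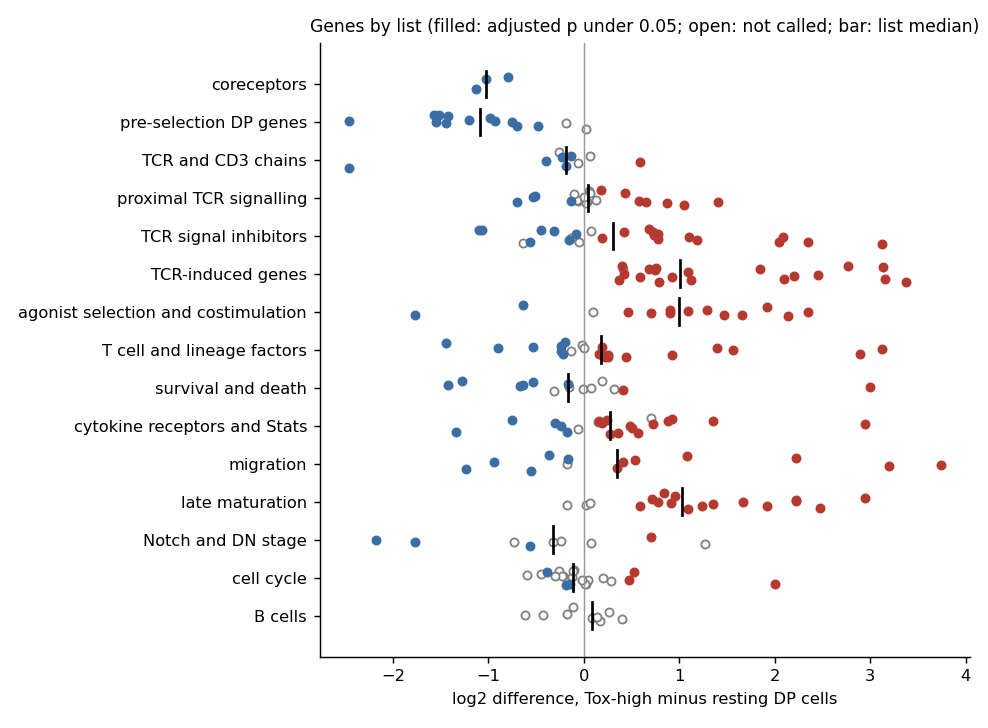
Log2 difference, Tox-high minus resting DP cells (horizontal axis), of each tested gene by gene list (vertical axis). Filled points were called by the edgeR test at an adjusted p under 0.05 (red higher, blue lower). Open points were not called, and bars mark the list medians. The 19 higher of 20 TCR-induced genes and the 12 lower of 14 pre-selection genes stand beside 18.7% and 19.2% of all genes called in those directions.

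Thinning every cell to 1000 UMIs left 2801 Tox-high cells and 16661 resting DP cells and left out 717 and 4704 shallower cells. The share of Tox-high cells with a UMI of Cd5 was then 40.3% ± 2.29 (SD, n = 8) and of resting DP cells 12.6% ± 2.24, where unthinned shares were 53.9% and 20.4%. Itm2a was found in 20.4% of Tox-high and 1.92% of resting DP cells (29.9% and 3.77% unthinned) and Ccr4 in 7.88% and 0.507%. In the other direction, Dntt was found in 18.5% and 50.7% and Cd8a in 25.8% and 48.9% of the cells. A class with myeloid markers, chosen after values were seen, was used to look for free RNA of T cell genes. Its cells were limited to at most 1 UMI of Cd3d, Cd3e, Cd3g, Tox and Arpp21 together. Cells with more RNA of these T cell genes were thus left out in advance, so its shares may understate free RNA. Among 228 such cells, with a median of 4606 UMIs before the same thinning, 1.75% had Cd5, 0.877% Itm2a, 2.19% Dntt and 7.02% Cd8a. The Itm2a share of 1.92% in resting DP cells was within about 1 percentage point of that level and is not read as expression. Bcl2 was found in 47.6% of Tox-high and 9.81% of resting DP cells and Bach2 in 55.8% and 12.1%, but the myeloid-marked cells held both, in 16.7% and 31.1%. Ccr7, Cd69 and Egr1 were found in more of the myeloid-marked cells (10.96%, 8.33% and 14.5%) than of the Tox-high cells (6.84%, 7.07% and 3.44%), and Il7r in 9.65% against 13.4%. Resting DP cells had 1.41% for Ccr7, 1.52% for Cd69, 0.732% for Egr1 and 1.75% for Il7r, far under the myeloid-marked cells, so that class does not give 1 level of free RNA for these genes. Whether its cells make these transcripts themselves was not tested. The shares of Ccr7, Cd69 and Egr1 in Tox-high cells are therefore not read as shares of expressing cells.

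**Figure D4:**
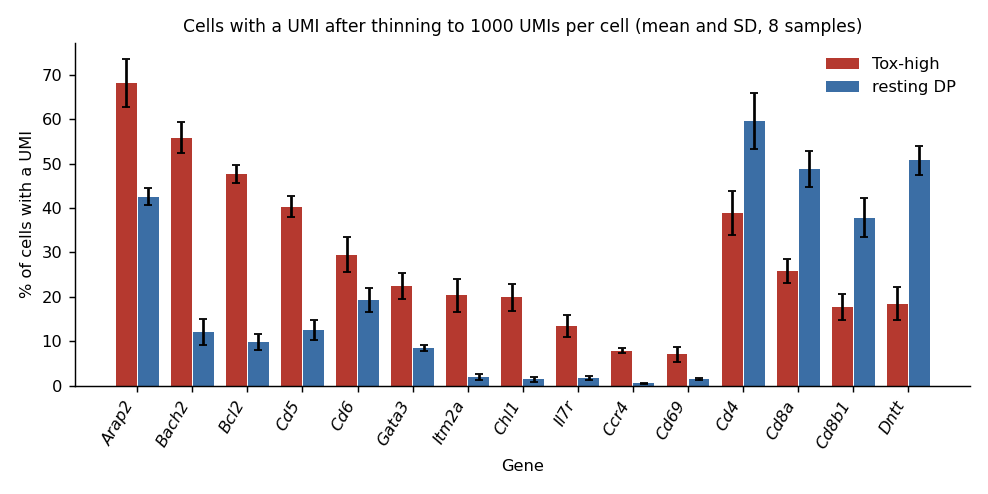
Percent of cells with at least 1 UMI (vertical axis) of 15 genes after thinning to 1000 UMIs per cell, in Tox-high cells (red) and resting DP cells (blue). Bars are means and lines SDs over 8 samples. Cd5 was found in 40.3% against 12.6% of cells and Dntt in 18.5% against 50.7%.

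The number of genes found per cell was compared at equal depth. At 1000 UMIs, Tox-high cells had a mean of 703 genes and resting DP cells 701, a difference of 2.42 ± 2.50 genes (SD, n = 8). It was positive in 6 of 8 samples, with p = 0.055 in an exact two-sided sign-flip permutation test over samples, whose smallest possible p is 0.0078. Without Mini 1-B the difference was 2.83 and without Mini 2-B 2.80 genes, each with an exact permutation p of 0.047. Within the kits it was 4.52 ± 1.36 genes in the WT samples (SD, n = 4, higher in 4 of 4) and 0.316 ± 0.990 genes in the Mini samples (SD, n = 4, higher in 2 of 4). With 4 samples the exact permutation test cannot give a p under 0.125. Against all other cells it had the opposite sign, -10.6 genes (p = 0.016, the same exact permutation test), with Tox-high cells higher in 1 of 8 samples.

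DP cells rearrange the TCR alpha locus in rounds that move from the Trav genes nearest the Traj genes to more distant ones. Of the UMIs of Trav genes, 85.2% in Tox-high and 86.6% in resting DP cells came from the 65 of 130 annotated genes that lie nearest the Traj genes. The difference of -1.35 ± 3.22 percentage points (SD, n = 8) was smaller than the spread between samples (exact two-sided sign-flip permutation p = 0.30, higher in 3 of 8 samples). It was -0.218 ± 1.00 points in the WT and -2.48 ± 4.45 points in the Mini samples (SD, n = 4 each). It rested on 62 to 164 Trav UMIs per sample of Tox-high cells, on 78 genes with any UMI, and on counts split between near-identical copies. Trav transcripts as a whole had 87.5 to 201 CPM in Tox-high and 70.1 to 127 CPM in resting DP cells, higher in 8 of 8 samples, a description without a test. All 60 Traj genes were listed at 0 UMIs, so that no Traj share could be given.

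Against all other cells of the same samples, 55238 cells with a median of 3224 UMIs, 4398 of 15717 genes (28.0%) were called, 1652 (10.5%) higher and 2746 (17.5%) lower in Tox-high cells. Most genes of the TCR-induced list were higher and most of the pre-selection and cell cycle lists lower, and the rule had left out cells with more than 1 UMI of Mki67 and Top2a. The genes that rose most were Chl1 (log2 2.72 ± 0.05), Ccr4 (2.57 ± 0.10), Lhfp, Itm2a (2.34 ± 0.06), B630019A10Rik, 4933406C10Rik, Stk39, Tox2 (2.05 ± 0.12), P2rx7 and Prlr. Cd5 had 615 to 866 CPM against 226 to 331 CPM (log2 1.37 ± 0.04) and Ccr9 822 to 1052 CPM against 465 to 588 CPM (log2 0.79 ± 0.03). Of the TCR-induced list 13 of 20 were higher and 1 lower, of the pre-selection list 1 of 14 higher and 12 lower, and of the cell cycle list 2 of 22 higher and 18 lower. Iqgap3, Cdc25c, Parpbp, Neil3, Cdk1, Kif18b, Spag5, E2f8, Pbk and Espl1, all linked to cell division or DNA repair, fell most, with log2 changes from -4.64 to -4.00. Il2ra (log2 -2.17 ± 0.12) and Notch1 (log2 -1.18 ± 0.07) were lower too, among 7 lower and 0 higher of 12 Notch and double-negative genes.

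A class past the CD4 gate, with 2 or more UMIs of Zbtb7b and Cd40lg, held 187 cells, 7 to 40 per sample, with a median of 3371 UMIs. Zbtb7b encodes ThPOK, the factor that fixes the CD4 fate. Tox-high cells had more RNA of Cd8a and Myb than these cells and less of Il7r, Bach2, Ccr7 and Ccnd2. Of 6703 genes 344 (5.13%) were called, 225 (3.36%) higher and 119 (1.78%) lower. With DESeq2 size factors in the same test the split was 177 higher and 168 lower. The DESeq2 Wald test called 230 genes, 110 higher and 120 lower. In cells matched on UMIs 232 of 3584 genes were called, 128 higher and 104 lower.

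Among the 14 pre-selection genes 12 were tested, and 6 were higher and 0 lower in Tox-high than in CD4-gate cells. Of all genes 3.36% were higher and 1.78% lower. Cd8a had 258 to 423 CPM against 10.6 to 250 CPM with no overlap (log2 1.47 ± 0.18, adjusted p = 2.5e-14). Myb (log2 1.25 ± 0.13) and Ccr9 (log2 0.95 ± 0.12) were higher in 8 of 8 samples, and the signalling adaptor gene Themis of DP cells was higher by 0.91. In the other direction, Il7r had 160 to 243 CPM against 293 to 873 CPM (log2 -1.19 ± 0.14, adjusted p = 2.7e-15), Ccr7 59.6 to 122 CPM against 132 to 266 CPM (log2 -0.99 ± 0.20) and Ccnd2 72.7 to 134 CPM against 153 to 476 CPM (log2 -1.34 ± 0.18). Bach2 (log2 -0.89 ± 0.09), Btla (log2 -0.96 ± 0.17) and Gpr183 (log2 -1.22 ± 0.22) were lower as well. Bcl2 had 1229 to 2015 CPM against 1134 to 7163 CPM (log2 -0.91 ± 0.11), a call that was lost in cells matched on UMIs (adjusted p = 0.16) or without Mini 2-A (adjusted p = 0.11). Cd4 was 450 to 670 CPM against 567 to 842 CPM (log2 -0.10 ± 0.12, adjusted p = 0.81) and Cd5 had an adjusted p of 0.86. Of the late maturation list 0 of 18 tested genes were higher and 5 lower.

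By size, the genes higher in Tox-high than in CD4-gate cells included Myo1f (log2 2.38), Slit3, BC035044, Sidt1 and Cnp (log2 1.93). In all CD4-gate cells together these genes had only 4, 8, 8, 10 and 5 UMIs, in that order. The sizes of their changes are thus uncertain, and 1 direction in 8 of 8 samples adds little. Smim3 had 149 UMIs in Tox-high cells and 0 in CD4-gate cells, at least 4.32-fold higher with a floor of 3 UMIs over the group. The genes lower by most were Gm47050 (log2 -2.001), Ccnd2, Sgms1, Il7r, Tnfsf11 (log2 -1.16), Pvt1, Oxr1 and Pcca (log2 -1.04). Leaving out 1 sample ended the call of Cnp (WT 1, WT 3, WT 4 or Mini 1-A, adjusted p = 0.052 to 0.15), of Slit3 (Mini 2-B, 0.063) and of Gm47050 (Mini 1-A, 0.096). Tnfsf11 encodes RANKL, a signal from T cells to medullary epithelium.

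A class past the signalled gate, with 3 or more UMIs of Tnfrsf9, Arhgap20, Ikzf2 and Nr4a3, held 2097 cells with a median of 2869 UMIs. Tox-high cells, which were cut to have at most 2 such UMIs, had less RNA of the 3 markers and of several genes tied to strong TCR signals than this class. They had more of Il7r, Itm2a and Bcl2. Of 8558 genes 848 (9.91%) were called, 383 (4.48%) higher and 465 (5.43%) lower. The count was 445 without the sample as a block, 427 with the DESeq2 Wald test and 378 in cells matched on UMIs.

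All 3 markers outside the rule were lower in Tox-high than in signalled-gate cells. Cd5 had 615 to 866 CPM against 887 to 1342 CPM with no overlap (log2 -0.71 ± 0.04, adjusted p = 7.6e-23), Cd6 had a log2 change of -0.69 ± 0.05 and Arap2 of -0.36 ± 0.03. Nr4a1 had 140 to 355 CPM against 353 to 705 CPM (log2 -1.01 ± 0.06), and the transcription factor genes Nfatc1 (log2 -1.08 ± 0.06), Egr3 (log2 -1.07 ± 0.27) and Nfkb1 (log2 -0.80 ± 0.06) were lower. The Egr3 call was lost without WT 4 (adjusted p = 0.11) and in cells matched on UMIs (0.15). Pdcd1 had 2.76 to 10.4 CPM against 16.6 to 29.9 CPM (log2 -2.002 ± 0.27). Of the TCR-induced list 1 of 20 genes was higher and 9 lower, of the inhibitor list 3 of 22 higher and 10 lower, and of the agonist list 0 of 14 higher and 7 lower. Of all genes 4.48% were higher and 5.43% lower. Bcl2l11, the Bim gene, was lower by 0.76 ± 0.06.

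Il7r was higher in Tox-high than in signalled-gate cells, 160 to 243 CPM against 41.4 to 114 CPM (log2 1.51 ± 0.11, adjusted p = 1.0e-11). Itm2a had 218 to 328 CPM against 80.3 to 148 CPM (log2 1.05 ± 0.08), the one TCR-induced gene that was higher. Bcl2 (log2 0.66 ± 0.04), Cd4 (log2 0.48 ± 0.05) and Gpr183 (log2 0.88 ± 0.14) were higher in 8 of 8 samples. Of 18 late maturation genes 8 were higher and 1 lower, beside 4.48% and 5.43% of all genes. The largest increases outside the lists were Hs3st3b1 (log2 1.34 ± 0.16), Card6, Samhd1, Lhfp and Inpp4b. Itgb8, an integrin gene whose product activates TGF-beta, had the largest decrease, 0 to 2.13 CPM against 10.9 to 62.4 CPM (log2 -5.01 ± 0.35), and Hecw2, Tmod1, Gm29114, Pdcd1, Alcam, Trib1 and Bend4 followed. Gm29114 (chr1:69513932-69547707, plus strand) is antisense to Ikzf2, on which the signalled gate was cut, so its counts may be Ikzf2 reads and its decrease is not read as a result. A430093F15Rik, named here for its place beside Cd5 after its values were seen, had 192 to 253 CPM against 364 to 619 CPM (log2 -1.13 ± 0.06).

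In the order of mean levels, Tox-high cells stood between resting DP and CD4-gate cells for Cd8a, Myb, Itm2a, Bach2, Il7r, Ccr7 and Ccnd2, and both steps were past the test for each of these 7 genes, which were chosen after their values were seen. The signalled-gate cells took another place. Their means of Cd5 and Nr4a1 were the highest of the 4 classes, although their difference from CD4-gate cells was not tested. Their Cd8a (359 ± 37.3 CPM) did not differ from that of Tox-high cells beyond the spread (346 ± 54.2 CPM, SD, n = 8, adjusted p = 0.75). Ccr9 was highest in Tox-high cells, 941 ± 80.3 CPM against 752 ± 65.6, 713 ± 53.8 and 516 ± 97.0 CPM in signalled-gate, resting DP and CD4-gate cells. The step from signalled-gate cells was lost in cells matched on UMIs (adjusted p = 0.16).

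**Figure D5:**
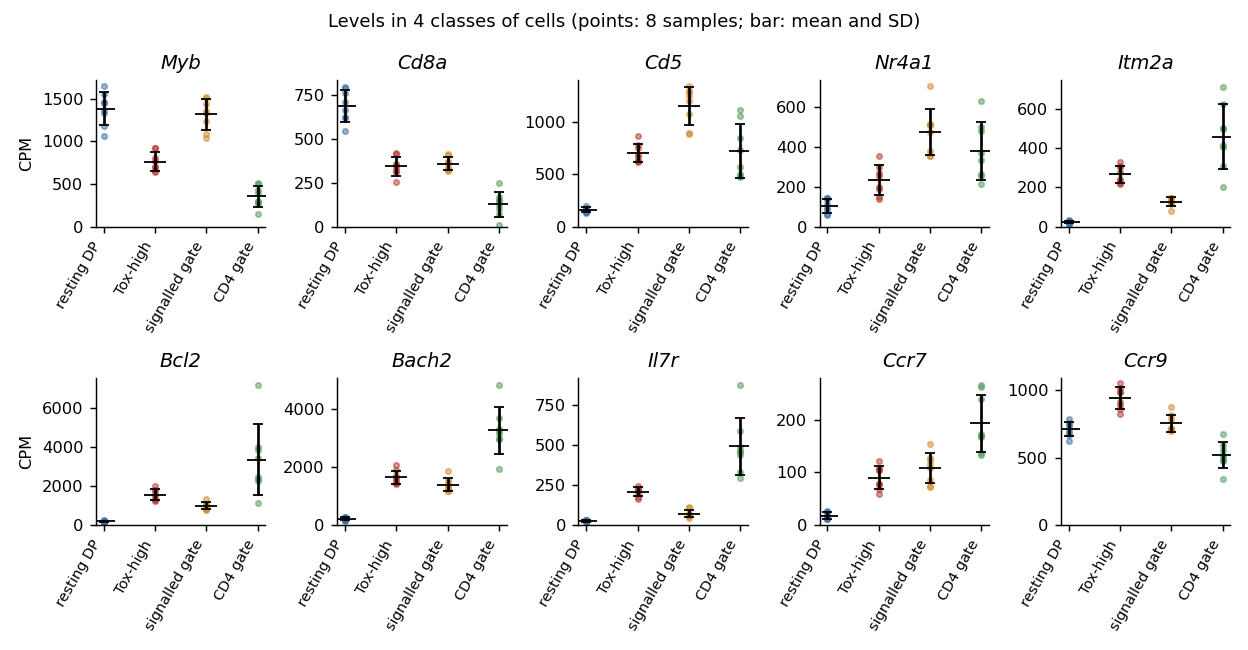
Level in CPM (vertical axis of each panel) of 10 genes in 4 classes of cells (horizontal axis). Points are the 8 tissue samples and lines the mean and SD. Tox-high cells lie between resting DP and CD4-gate cells for Myb, Cd8a, Itm2a, Bach2, Il7r and Ccr7, and under signalled-gate cells for Cd5 and Nr4a1.

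Markers of other cell types were counted in Tox-high and resting DP cells. The summed level of 10 B cell genes ran from 62.8 to 275 CPM (median 192) against 84.0 to 292 CPM (median 172) in resting DP cells, and 0 of 9 tested genes were called. The sum of 16 myeloid and dendritic genes ran from 26.0 to 117 CPM (median 54.0) against 38.7 to 71.0 CPM (median 51.7), with Xcr1 at 0. Of 9 tested, H2-Eb1 (log2 0.80) and Cd74 (log2 0.59) were higher and Itgam (log2 -1.50) lower, beside 37.9% of all genes called in either direction. The H2-Eb1 call was lost without WT 3 (adjusted p = 0.052) or WT 4 (0.19) and the Cd74 call without WT 4 (0.16). Cd74 had a log2 change of -0.09 once cells with 2 or more UMIs of B cell or myeloid genes were left out. The sum of 12 gamma-delta and innate-like genes ran from 21.7 to 128 CPM (median 55.4) against 19.02 to 41.6 CPM (median 35.04). Of these, 3 of 5 tested genes, Sox13, Il23r and Zbtb16, were higher, beside 18.7% of all genes. Tcrg-C4 was at 0 in both classes and in all other cells too, so its 0 tells nothing about gamma-delta cells. Of the Tox-high cells 249 (7.08%) had 2 or more UMIs of B cell or myeloid genes, against 11305 (20.5%) of all other cells. This share moves with depth, and the other cells were deeper. In the top 5% of a doublet score lay 32 (0.910%) of the Tox-high cells. That cut was fixed at 5% of the cells of each sample, so it gives no estimate of how many cells were doublets. With another method the paper called a larger share of both Parse libraries doublets. The sum of 6 erythroid genes ran from 0 to 11.1 CPM against 0.554 to 9.82 CPM. The sum of 10 thymic stroma genes ran from 426 to 546 CPM (median 480) against 392 to 498 CPM (median 429), and nearly all of it was Pecam1, with 424 to 541 CPM against 385 to 488 CPM (log2 0.12 ± 0.04, adjusted p = 0.011, higher in 6 of 8 samples). That call was lost without WT 3 (adjusted p = 0.055) or Mini 2-B (0.052). Of the other 9, Epcam was called lower (log2 -1.17 ± 0.48, adjusted p = 0.049), a call lost without WT 2, Mini 1-A, Mini 1-B or Mini 2-A (adjusted p = 0.077 to 0.096), Pdgfrb was not called, 7 were not tested, and Krt5, Foxn1 and Psmb11 of these were at 0. The part of these cell types in the other results was not tested.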

How the data were processed

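The authors deposited UMI counts per cell and gene for each Parse kit, with no normalization, after mapping with split-pipe to mm10 from Ensembl and combining 9 (WT) or 2 (Mini) sublibraries. Which split-pipe version and Ensembl release they used is unknown here. The deposited cell tables give the sample, the first-round well and the UMI count of each cell. The listed samples are sublibraries, so tissue samples were taken from these tables. The 10x data were not analysed here. Total counts of the 8 samples ran from 28057164 to 124106974 UMIs, and low counts carry counting error.

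Cells with 500 to 25000 UMIs were kept, and counts were summed per sample and class without ribosomal RNA (Rn18s-rs5, mt-Rnr1, mt-Rnr2), which was 10.2% to 24.3% of the UMIs of Tox-high cells. The sums were tested with edgeR 4.0.16 (limma 3.58.1, R 4.3.3): TMM, filterByExpr, quasi-likelihood test with the tissue sample as a block, since both sums of a sample share a lobe and a library, and Benjamini-Hochberg adjustment over all genes tested at 0.05. The SE given with a log2 change was not estimated directly. It was calculated back as the size of the change divided by the square root of the quasi-likelihood F value. DESeq2 1.42.0 was an alternative. Single values were tested by exact permutation in Python 3.11.15 with numpy 2.4.6, scipy 1.17.1 and pandas 2.3.3, and the doublet score used scikit-learn 1.9.0. The scripts were tested on simulated data. No doublets were removed. No full barcode was found in more than 1 cell, while 19161 WT and 2398 Mini cells shared a 3-well barcode with a cell of another sublibrary. The kits could share no such barcode here, since their cells came from different first-round wells. Of 57010 gene identifiers, 52029 (91.3%) were found in GENCODE M21. Promoters came from RefSeq.

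The members and gene lists were chosen with earlier results of these data known. Genes named are those of the rule, the markers, the largest changes and further members by role of each list, and the 10 (or, for the 2 gates, 8) largest changes each way among called genes of at least 20 CPM with 1 direction in 8 of 8 samples. Alternatives changed the test, the scaling, filter, block, kit, depth and doublet settings and left out each sample in turn.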

Additional observations from a re-analysis of the deposited data

Results flagged for a closer look

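Within each kit, 98 groups of 4 samples were searched for a sample far from the other 3, and 9 had one, where chance gives about 5% of groups. The share of Tox-high cells was lowest in WT 4, at 5.27%. Its 2 first-round wells differed, with 4.91% of 10680 cells in D1 and 6.39% of 3520 cells in D2. Over the wells of all samples the share ran from 4.69% (Mini 1-A, A2) to 8.54% (Mini 2-B, A10). In Tox-high cells, WT 1 stood highest for Cd5 (866 CPM), Bcl2 (2015 CPM) and Lef1 (3904 CPM). Mini 1-B was lowest for Cd69 (69.6 CPM), Mini 2-A for Il7r (175 CPM) and WT 3 for Ccr7 (78.3 CPM). In resting DP cells, WT 3 was lowest for Cd69 (15.6 CPM) and WT 4 for Cd8b1 (344 CPM). Among named genes, 2 differed between the kits in their contrast of Tox-high with all other cells, by an edgeR interaction test. The B cell factor gene Pax5 had a log2 change of 0.07 in WT and -4.42 in Mini samples, a difference of -4.49 (adjusted p = 0.00047). The mitosis gene Cenpf had -2.58 and -3.68, a difference of -1.10 (adjusted p = 0.013). Over all genes, 8 of 15717 passed this test, and 1 of 11416 did in the contrast with resting DP cells.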

How the results depend on the processing

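Numbers of called genes moved with the samples and the test more than directions did. The named genes counted here were only those called in the main fit, and the alternatives reused counts of the same cells. Kept calls are thus no independent support. Against resting DP cells, 182 named genes had 3798 values over 21 alternatives, of which 3664 kept direction and call. The call was lost in 133, and 1 changed sign (Cd74, log2 -0.091 without cells with B cell or myeloid markers). Against all other cells, 3848 of 4041 values kept both, 188 lost the call and 5 changed sign: Runx1 (0.0191 in cells matched on UMIs) and, without cells with B cell or myeloid markers, Blk (0.094), Cd74 (0.40), S100a9 (0.44) and H2-Eb1 (0.23). For the CD4 gate 762 of 901 and for the signalled gate 1194 of 1412 values kept both, and 0 changed sign. The Mini samples alone gave 2640 genes against all other cells, 2707 against resting DP, 82 against CD4-gate and 415 against signalled-gate cells, and the WT samples alone gave 173 and 489 for the 2 gates. For the signalled gate the count fell from 848 to 427 with the DESeq2 Wald test and to 378 in cells matched on UMIs. Without the replicate block by tissue sample the counts were 3498, 3336, 310 and 445 in the order other, resting DP, CD4-gate and signalled-gate cells. Leaving out 1 sample gave 3911 to 4277, 3929 to 4225, 255 to 360 and 705 to 793 genes in the same order. Lobes summed to 4 units gave 4350 or 4369 genes against other cells and 4418 or 4420 against resting DP cells, with the Mini lobes paired by letter or by number. The share of Tox-high cells was 6.80% with 3 Tox UMIs, 4.96% with 6, 7.003% under 10000 UMIs and 6.99% without cells with B cell or myeloid markers, and 5.93% to 6.22% without 1 sample. The difference in genes per cell was 1.88 to 2.83 without 1 sample and -10.6 against all other cells, and within the kits 4.52 (WT) and 0.316 (Mini). That in the Trav share was -2.01 to -0.685 without 1 sample, -0.218 (WT) and -2.48 (Mini). The Traj alternatives gave no value. The causes of these shifts were not tested. Depth limits the CD4 gate, with 7 to 40 cells per sample, and genes of a few CPM such as Egr3, Pdcd1 and Il23r.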
